A study of Homo sapiens with 6 samples.

Results

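The NRF2 target and aldo-keto reductase genes described here were a set of 10 genes, HMOX1, NQO1, GCLC, GCLM, TXNRD1, SRXN1, AKR1C1, AKR1C2, AKR1C3 and AKR1B10, chosen by name among the 58174 genes of the expression matrix. They were measured by mRNA sequencing of SiHa cells, an established human line from a cervical squamous cell carcinoma. The 3 samples of the OV-BRCA1 group had been transfected with the plasmid GV230-BRCA1 and the 3 samples of the NC group with the GV230 vector lacking the insert, both with a Lipofectamine reagent and both harvested after 48 h. All samples came from this 1 cell line and differed by the labels only in the plasmid, and the methods describe no selection of transfected cells. The share of cells that took up plasmid is not given in the sources used here. In such bulk samples, fewer cells expressing a gene and less RNA per cell cannot be told apart.

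NRF2, encoded by NFE2L2, is a transcription factor that KEAP1 holds at a low level by directing its degradation. When electrophiles or oxidants modify KEAP1, NRF2 accumulates, pairs with a small MAF protein and binds antioxidant response elements, sites that BACH1 can occupy as a repressor. The genes it drives make glutathione and thioredoxin, detoxify quinones and carbonyls, break down haem and supply NADPH. The AKR1C genes encode aldo-keto reductases that use NADPH to reduce aldehydes, ketones and steroids, and they are often high in squamous tumours in which NRF2 is active.

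The values were FPKM, the number of fragments per kilobase of transcript and per unit of library depth, summed here over the transcripts of each gene. The files hold no counts, and the depth estimated from the lowest values was 14.18 to 16.7 M fragments for OV-BRCA1 samples and 16.2 to 20.18 M for NC samples. Correlations of log2 values between samples were 0.985 to 0.986 within groups and 0.951 to 0.955 between groups. BRCA1, the gene on the plasmid, had 35.74, 40.77 and 34.89 FPKM in the OV-BRCA1 group against 20.1, 14.88 and 21.68 FPKM in the NC group (log2 fold change 0.95, limma adjusted p = 0.00373), and plasmid and endogenous transcripts cannot be told apart. Mitochondrial genes took 14.84% to 17.25% of FPKM in OV-BRCA1 samples and 21% to 23.2% in NC samples. Of the 9 epithelial markers, 4 (KRT17, KRT8, KRT18 and EPCAM) reached 1 FPKM, while KRT5, KRT14, KRT19, TP63 and CDH1 stayed below it. These 9 markers summed to 1590 to 1740 FPKM in OV-BRCA1 samples and 1930 to 1980 FPKM in NC samples. KRT17 was lower and KRT8, KRT18 and EPCAM were higher in the OV-BRCA1 group (log2 fold changes -0.48, 0.20, 0.39 and 1.12). The authors' own test, by contrast, listed KRT8 as downregulated. The 5 leukocyte markers summed to 22.2 to 29.5 FPKM in the OV-BRCA1 group and 2.97 to 4.35 FPKM in the NC group, nearly all of it from CD68, with PTPRC at 0 in every sample. The 5 fibroblast markers summed to 3.05 to 3.8 against 6.11 to 6.71 FPKM, nearly all of it from COL1A1. The 3 endothelial markers summed to 0.761 to 1.45 against 0.629 to 0.788 FPKM, nearly all of it from PECAM1. The part of these markers or of the mitochondrial share in the results below was not tested, except that the fold changes were also fitted after scaling to nuclear protein-coding genes.

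The genes moved in both directions. The aldo-keto reductases AKR1C1, AKR1C2 and AKR1C3 were lower in the OV-BRCA1 group by 1.98 to 3.03 times and HMOX1 by 1.33 times, while GCLM and SRXN1 were higher by 1.59 and 1.51 times. Of the 10 genes, 9 passed the filter on low values (at least 0.5 FPKM in at least 3 samples), and AKR1B10 did not. In the limma fit across 16321 genes on log2(FPKM + 1), with the Benjamini-Hochberg adjusted p below 0.05 as the call, 2 of the 9 were higher, 4 were lower and 3 were not called. Over all genes tested, 35.3% were called, 16.4% as higher and 18.9% as lower. With an absolute log2 fold change above 1 as a further criterion, the 9 genes held 2 downregulated DEGs (AKR1C2 and AKR1C3) and no upregulated DEG, where all genes held 1.1% downregulated and 2.89% upregulated DEGs. The median log2 fold change was -0.01 over the 9 genes and -0.04 over all genes tested. Fold changes on the log2(FPKM + 1) scale understate the change of genes with low values.

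**Figure D1:**
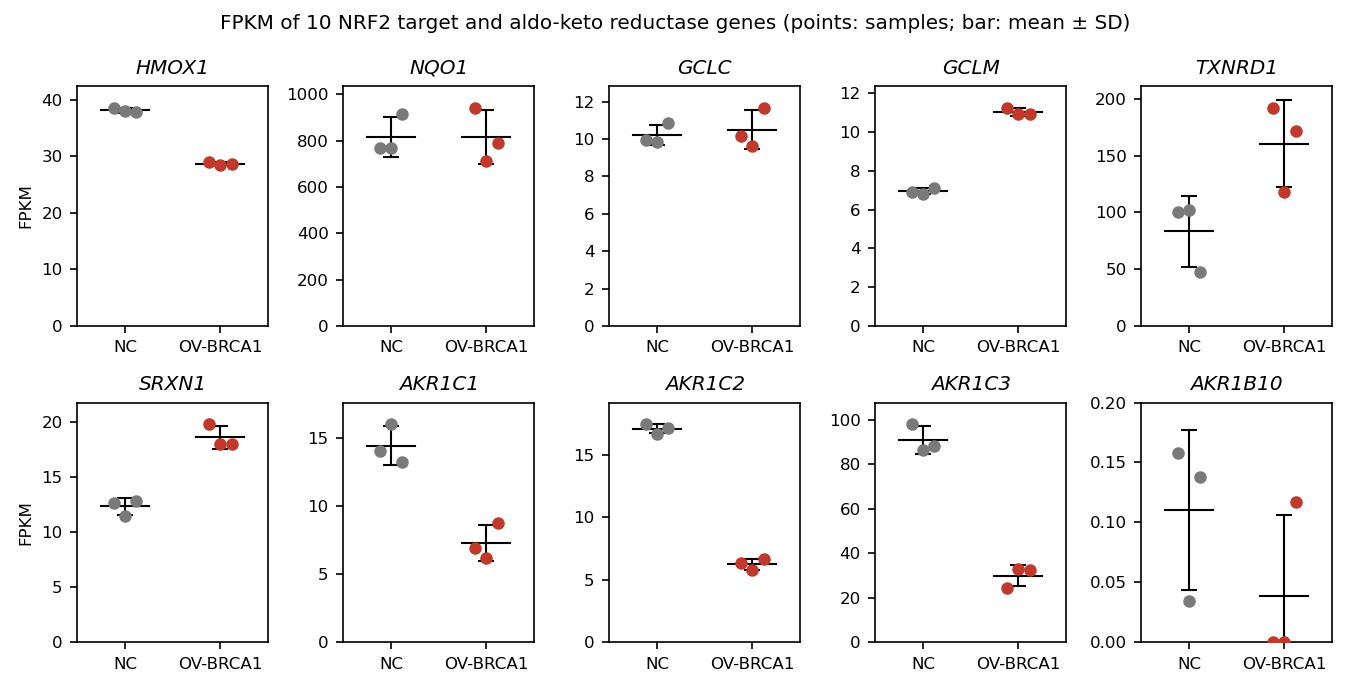
FPKM (vertical axes, linear and starting at 0, each panel with its own scale) of the 10 genes in the 3 NC samples (grey) and the 3 OV-BRCA1 samples (red), with lines for the mean and bars for the SD. The groups stand apart in 7 panels (50.8% of all genes tested had groups apart) and overlap for NQO1, GCLC and AKR1B10.

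HMOX1 (ENSG00000100292, GENCODE 29 position chr22:35380361-35394214, plus strand) encodes the inducible haem oxygenase, which opens haem to biliverdin, iron and carbon monoxide. It had 28.98, 28.47 and 28.71 FPKM in the OV-BRCA1 group and 38.61, 38.06 and 37.84 FPKM in the NC group. Every OV-BRCA1 sample was below every NC sample, and the samples of each group lay within 1 FPKM of each other. The log2 fold change was -0.40 ± 0.04 (standard error, limma adjusted p = 0.00121, n = 3 per group). Its main transcript HMOX1-201 was also called, at 28.65, 27.3 and 27.57 FPKM against 37.32, 37.82 and 37.32 FPKM (log2 fold change -0.42, limma adjusted p = 0.0261 over 50925 transcripts).

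NQO1 (ENSG00000181019, chr16:69706996-69726951, minus strand) encodes the quinone reductase that is the usual readout of NRF2 activity, and it was the most abundant of the 10 genes in every sample. Its level was 941.4, 711.4 and 788.6 FPKM in the OV-BRCA1 group and 767.2, 766.0 and 915.9 FPKM in the NC group. The groups overlapped, with the highest and the lowest sample both in the OV-BRCA1 group. The log2 fold change was -0.01 ± 0.12 (limma adjusted p = 0.961). The antisense gene AC092115.2 overlaps it, and whether reads were assigned by strand is not given in the sources used here.

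The glutamate-cysteine ligase subunits, which together catalyse the rate-limiting step of glutathione synthesis, differed from each other. The catalytic subunit GCLC (ENSG00000001084, chr6:53497341-53616970, minus strand) had 10.18, 9.647 and 11.67 FPKM in the OV-BRCA1 group against 9.948, 9.838 and 10.85 FPKM in the NC group. These ranges overlapped, with a log2 fold change of 0.03 ± 0.09 (limma adjusted p = 0.791). The modifier subunit GCLM (ENSG00000023909, chr1:93885205-93909456, minus strand), which raises the efficiency of the catalytic subunit, had 11.26, 10.93 and 10.94 FPKM in the OV-BRCA1 group and 6.934, 6.797 and 7.124 FPKM in the NC group. GCLM rose, with every OV-BRCA1 sample above every NC sample and a log2 fold change of 0.60 ± 0.06 (limma adjusted p = 0.000802). Within samples, the log2 ratio of GCLM to GCLC FPKM was 0.15, 0.18 and -0.09 in the OV-BRCA1 samples and -0.52, -0.53 and -0.61 in the NC samples. GCLM thus exceeded GCLC in 2 OV-BRCA1 samples and lay below it in all NC samples. The difference of the ratios was 0.63 (exact two-sided permutation test, p = 0.1, the smallest that 3 samples against 3 allow).

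SRXN1 (ENSG00000271303, chr20:646615-653370, minus strand) encodes sulfiredoxin, which restores overoxidised peroxiredoxins. It had 19.75, 17.98 and 17.95 FPKM in the OV-BRCA1 group and 12.65, 11.47 and 12.81 FPKM in the NC group, all from its single transcript SRXN1-201. The groups did not overlap, and the log2 fold change was 0.56 ± 0.07 (limma adjusted p = 0.00207). TXNRD1 (ENSG00000198431, chr12:104215779-104350305, plus strand), the cytosolic thioredoxin reductase, had 192.0, 117.8 and 171.4 FPKM in the OV-BRCA1 group and 100.3, 101.8 and 47.42 FPKM in the NC group. Its groups did not overlap either, but the samples of each group were spread by a wide margin, with OV-BRCA1 sample 2 close to the NC samples and NC sample 3 far below the other two. The log2 fold change of 0.99 ± 0.33 did not pass the test (limma adjusted p = 0.0612).

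TXNRD1 also depended on how transcripts were added up. In a sum weighted by transcript length, an alternative chosen after seeing the data, its FPKM was 193.2, 87.41 and 188.6 in the OV-BRCA1 group and 105.0, 107.5 and 49.01 in the NC group, so that OV-BRCA1 sample 2 fell among the NC samples. The transcript TXNRD1-205 carried 137.5, 31.29 and 141.9 FPKM in the OV-BRCA1 group and 74.17, 77.89 and 32.6 FPKM in the NC group. The transcript TXNRD1-215 was high where TXNRD1-205 was low in OV-BRCA1 sample 2, at 69.38 FPKM against 32.19 and 18.26 FPKM in the other two, and had 21.43, 17.74 and 0.707 FPKM in the NC group. Neither passed the test (limma adjusted p = 0.693 and 0.366). Of its 24 transcripts 11 passed the filter, and the calls among them were TXNRD1-210 and TXNRD1-223, both named after their values were seen. These passed the filter only through the OV-BRCA1 group, so their calls support nothing. TXNRD1-210 had 1.077, 1.343 and 1.522 FPKM against 0.2066, 0.2544 and 0.3632 FPKM. The genes AC089983.1, EID3 and RPL18AP3 overlap TXNRD1.

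The start regions of these genes are shown because NRF2 acts through a motif in DNA. Promoter sequences of RefSeq (GRCh38.p14, 250 bases before to 50 after each start) matched 8 of the 10 genes, with 10 promoters in all. HMOX1 and AKR1B10 were not matched. The core of the antioxidant response element, TGACNNNGC on either strand, was found in 3 of these 10 promoters and in 13.3% of all 35116 promoters. The matches lay in GCLM, which rose, and at both starts of TXNRD1, which was not called. Each stretch below shows 30 bases, 5′ to 3′ on the strand of the gene, with the core in capitals, which begins 34 bases before the start in GCLM, 99 and 8 bases before start 1 of TXNRD1 and 102 bases before its start 2.
GCLM, chr1:93909445-93909474, minus strand: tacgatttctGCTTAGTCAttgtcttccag
TXNRD1 start 1, chr12:104215670-104215699, plus strand: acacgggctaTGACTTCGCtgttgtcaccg
TXNRD1 start 1, chr12:104215761-104215790, plus strand: gcgtccttcgGCTCCGTCAgttcccacagg
TXNRD1 start 2, chr12:104286920-104286949, plus strand: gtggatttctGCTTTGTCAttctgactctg
In GENCODE 29, the stretch at start 2 lies in the 5′ UTR of TXNRD1-205 and that of GCLM overlaps the 5′ UTR of GCLM-204, as the second stretch at start 1 does for TXNRD1-204 and TXNRD1-208. The AP-1 site TGACTCA was found in 4.95% of all promoters and in none of these 10. A match is a description of the letters and not of binding, and no match says only that the letters are not in this window.

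The AKR1C genes lie side by side on chromosome 10 and all fell, AKR1C2 and AKR1C3 by more than any other of the 9 tested genes. AKR1C1 (ENSG00000187134, chr10:4963253-4983283, plus strand), which inactivates progesterone, had 6.938, 6.191 and 8.768 FPKM in the OV-BRCA1 group and 14.05, 15.98 and 13.23 FPKM in the NC group. Every OV-BRCA1 sample was below every NC sample, at a log2 fold change of -0.90 ± 0.13 (limma adjusted p = 0.00334). AKR1C2 (ENSG00000151632, chr10:4987400-5018031, minus strand), which reduces dihydrotestosterone, had 6.307, 5.785 and 6.659 FPKM in the OV-BRCA1 group and 17.42, 16.67 and 17.15 FPKM in the NC group. It fell by 1.32 ± 0.07 on the log2 scale (limma adjusted p = 6.51e-05), and the gap between the groups was far wider than the spread in either. AKR1C3 (ENSG00000196139, chr10:5035354-5107686, plus strand), which makes testosterone and prostaglandin F, had 24.47, 32.81 and 32.62 FPKM in the OV-BRCA1 group and 98.04, 86.3 and 88.33 FPKM in the NC group. It fell by 1.58 ± 0.12 on the log2 scale (limma adjusted p = 0.000296), and of the 16321 genes tested only 25 had a lower log2 fold change. AKR1C2 was exceeded in this way by 51 genes and AKR1C1 by 315.

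AKR1C1 and AKR1C2 are close copies, so the split of reads between them is uncertain. Of the 100-base windows of transcript AKR1C2-201, 31.1% occurred without a mismatch in transcripts of AKR1C1 and 1.97% in those of AKR1C3. The sum of the AKR1C genes does not depend on this split, except for differences in transcript length. It was 43.5 ± 5.28 FPKM (SD, n = 3) in OV-BRCA1 samples and 122 ± 6.16 FPKM in NC samples, a ratio of 2.81. The samples ranged from 37.7 to 48.0 FPKM in the OV-BRCA1 group and from 119 to 130 FPKM in the NC group. On the log2 scale the sums differed by -1.50 (exact two-sided permutation test, p = 0.1, the smallest that 3 samples against 3 allow). AKR1C3 made up most of the sum in every sample, with 68.7% ± 4.2 (SD, n = 3) under OV-BRCA1 and 74.2% ± 1.6 under NC. AKR1C1 took 16.8% ± 2.6 against 11.8% ± 1.4 and AKR1C2 14.5% ± 2.0 against 14.0% ± 0.5, and these shares were not tested. The antisense gene AL391427.1 overlaps AKR1C2.

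**Figure D2:**
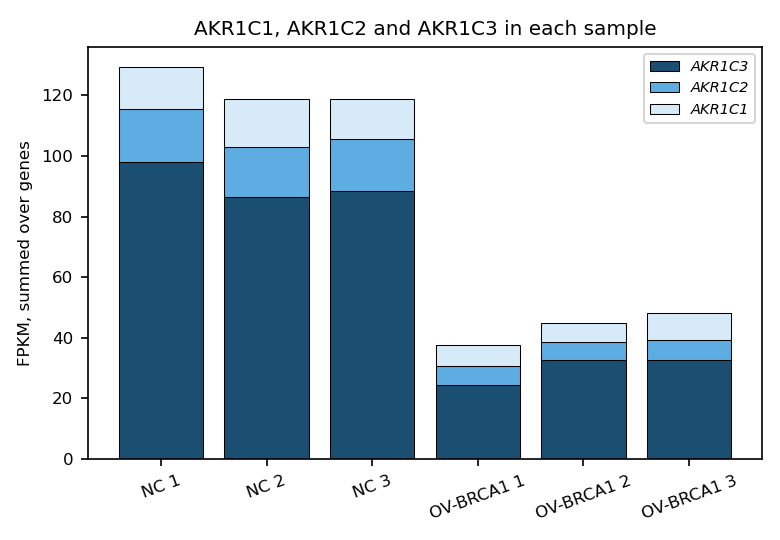
FPKM of AKR1C1, AKR1C2 and AKR1C3 stacked for each sample (vertical axis, from 0). The sums lie between 119 and 130 FPKM in the NC samples and between 37.7 and 48.0 FPKM in the OV-BRCA1 samples, and AKR1C3 is the largest segment of every bar.

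The promoters of the AKR1C genes are shown because the genes moved together. In the 250 bases before the start, AKR1C1 and AKR1C2 were 96.5% identical, and AKR1C1 was 72.4% and 69.9% identical to start 1 and start 2 of AKR1C3. The longest run common to all of them within 120 bases of the start was a stretch of 12 bases, in capitals below, which begins 73 to 86 bases before the start.
AKR1C1, chr10:4963329-4963358, plus strand: tcacatgccATTGGTTAACCAgcagacagt
AKR1C2, chr10:5003918-5003947, minus strand: tcacatgccATTGGTTAACCAgcagacagt
AKR1C3 start 1, chr10:5048699-5048728, plus strand: ttacatgctATTGGTTAACCAttaggcagt
AKR1C3 start 2, chr10:5094319-5094348, plus strand: ctacatgccATTGGTTAACCAtcagtcagt
The run holds the CCAAT box on the reverse strand, and this motif was found on either strand in 7 of the 10 promoters and in 34.6% of all promoters. The 7 promoters belong to 5 genes, with the AKR1C promoters matched through the shared run itself and TXNRD1 at both its starts. They are not independent, so this count is not read against that share. Neither the antioxidant response element core nor the AP-1 site occurred in these AKR1C windows. By GENCODE 29, the stretches of AKR1C1, AKR1C2 and AKR1C3 start 2 lie in the 5′ UTR of AKR1C1-202, AKR1C2-201 and AKR1C3-201.

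The 83 transcripts of the 10 genes gave 40 that passed the filter and 6 that were called, with 5.47% of all 50925 transcripts called. Of the 6, TXNRD1-210 and TXNRD1-223 entered only through the group in which they were high, so the count is not read against that share. The others were HMOX1-201, SRXN1-201, AKR1C1-202 and AKR1C2-201. AKR1C1-202 had 4.465, 4.209 and 3.647 FPKM in the OV-BRCA1 group and 8.594, 8.718 and 8.444 FPKM in the NC group (limma adjusted p = 0.0133). AKR1C2-201 had 4.974, 2.484 and 2.674 FPKM against 10.3, 11.56 and 11.54 FPKM (limma adjusted p = 0.0254). Both were lower in every OV-BRCA1 sample, as their genes were.

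In AKR1C3 and NQO1 the split among transcripts varied more between samples than the gene did. AKR1C3-209 was listed at 0, 26.87 and 26.55 FPKM in the OV-BRCA1 group and at 62.25, 53.98 and 13.08 FPKM in the NC group. AKR1C3-201 was high where AKR1C3-209 was low, at 21.6, 2.513 and 4.05 FPKM against 10.07, 17.94 and 63.7 FPKM. Neither passed the test (limma adjusted p = 0.495 and 0.365), although the gene did. NQO1-204 ranged from 153.0 to 397.5 FPKM in the OV-BRCA1 group and from 266.7 to 486.2 FPKM in the NC group, and NQO1-203 from 280.3 to 335.4 and from 73.63 to 300.4 FPKM. GCLM-201, the main transcript of GCLM, was above the NC group in every OV-BRCA1 sample and missed the test (log2 fold change 0.76, limma adjusted p = 0.0799). Transcripts of 1 gene overlap and share reads, so these splits are estimates.

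**Figure D3:**
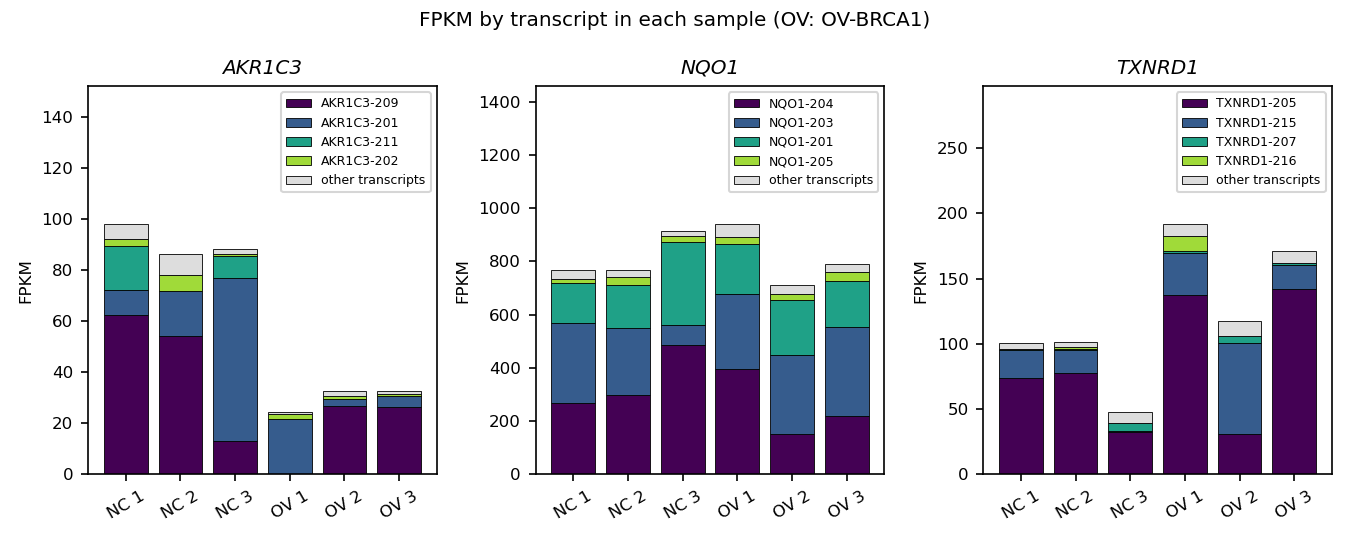
FPKM by transcript (coloured segments, the 4 most abundant, with the rest in grey) for AKR1C3, NQO1 and TXNRD1 in each sample. The dark segment, the most abundant transcript of each gene over all samples, changes from sample to sample within a group, and for AKR1C3 it is at 0 in OV-BRCA1 sample 1.

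AKR1B10 (ENSG00000198074, chr7:134527592-134541408, plus strand), a retinal and aldehyde reductase that is often induced with the AKR1C genes, had values close to 0 in every sample. They were 0, 0 and 0.1168 FPKM in the OV-BRCA1 group and 0.1581, 0.03419 and 0.1382 FPKM in the NC group, so the groups overlapped and no test or fold is given. Its neighbour AKR1B15 had 0.8828, 0.8573 and 0.6374 FPKM in the OV-BRCA1 group and 0.07919, 0.0277 and 0.1789 FPKM in the NC group. The groups of AKR1B15 did not overlap, but it passed the filter only through the OV-BRCA1 group, so its values are a description and no test is given. Of the 100-base windows of AKR1B10, 1.14% also occurred in AKR1B15.

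The pathway around these genes was read from 7 further lists with 95 genes, of which 78 were tested. Of these 78, 9 were called higher, AKR1B15 among them, and 27 lower, beside 16.4% higher and 18.9% lower over all genes tested. The median log2 fold change was -0.15, against -0.04 over all genes. Only TXNIP was an upregulated DEG, and FTH1, AOX1, ALDH3A1 and ABCC3 were downregulated DEGs.

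Of the 12 regulators, 2 rose and 1 fell (median 0.12), beside 16.4% higher and 18.9% lower over all genes tested. Neither NFE2L2 nor KEAP1 passed the test. NFE2L2 had 97.9, 54.63 and 55.51 FPKM in the OV-BRCA1 group and 65.43, 62.64 and 61.85 FPKM in the NC group, so that OV-BRCA1 sample 1 was the highest of all and the other two were below the NC group. Its log2 fold change was 0.08 ± 0.22 (limma adjusted p = 0.816), and without OV-BRCA1 sample 1 it was -0.20 (limma adjusted p = 0.0442). KEAP1 had 18.99, 19.43 and 19.96 FPKM against 21.25, 15.48 and 24.61 FPKM, with a log2 fold change of -0.04 ± 0.16 (limma adjusted p = 0.847). BACH1, the repressor at NRF2 sites, rose from 5.878, 5.354 and 5.172 FPKM in the NC group to 8.08, 8.618 and 8.862 FPKM in the OV-BRCA1 group. This was a log2 fold change of 0.56 ± 0.08 (limma adjusted p = 0.00263), without overlap of the groups. With its most abundant transcript in place of the sum, BACH1 was not called (log2 fold change 1.23, limma adjusted p = 0.311). SQSTM1, which encodes the autophagy receptor p62 that binds KEAP1, rose by 0.38 on the log2 scale, and the small MAF gene MAFK fell by 0.40.

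Of the 15 tested glutathione genes out of 23, 2 rose and 6 fell (median -0.05), beside 16.4% higher and 18.9% lower over all genes. SLC7A11, the cystine transporter that feeds glutathione synthesis, had 7.989, 7.168 and 7.571 FPKM in the OV-BRCA1 group and 3.152, 3.365 and 3.347 FPKM in the NC group. It rose 2.3 times, with a log2 fold change of 1.00 ± 0.07 (limma adjusted p = 0.000247) that lay just under the DEG limit. The glutaredoxin GLRX rose by 0.68 on the log2 scale and GPX4, which reduces lipid peroxides, fell by 0.86, from 279.6, 288.5 and 293.0 FPKM to 161.9, 153.5 and 158.5 FPKM. GSTM1, GSTM2, GSTM4 and GSTA1 were listed at 0 in all samples.

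Of the 13 thioredoxin and peroxide genes, 3 rose and 3 fell (median -0.05), beside 16.4% higher and 18.9% lower over all genes tested. TXNIP, which binds and inhibits thioredoxin, had 46.46, 45.39 and 45.52 FPKM in the OV-BRCA1 group and 19.15, 19.02 and 18.68 FPKM in the NC group, the groups being far apart beside their spread (log2 fold change 1.23 ± 0.05, limma adjusted p = 1.49e-05). The peroxiredoxin PRDX5 fell by 0.57 and catalase, CAT, by 0.56.

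The haem and iron list, to which HMOX1 belongs by function, had 6 of 8 tested genes lower and none higher (median -0.41), where 18.9% of all genes tested were lower and 16.4% higher. FTH1, the heavy chain of the iron store ferritin, had 2247, 2164 and 2273 FPKM in the OV-BRCA1 group and 4315, 4624 and 4769 FPKM in the NC group. It fell by 1.03 ± 0.05 on the log2 scale (limma adjusted p = 3.98e-05), and the light chain FTL fell by 0.35. Both genes have many processed pseudogenes, so the assignment of their reads is uncertain. BLVRA, the biliverdin reductase that acts after haem oxygenase, fell by 0.51.

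Of the 8 NADPH genes, 1 rose and 4 fell (median -0.28), beside 16.4% higher and 18.9% lower over all genes tested. PGLS, an enzyme of the pentose phosphate pathway, fell by 0.49 on the log2 scale, and the mitochondrial isocitrate dehydrogenase IDH2 fell by 0.38. Of the 17 tested detoxification genes out of 20, none rose and 5 fell (median 0.01), beside 16.4% higher and 18.9% lower over all genes. The aldehyde oxidase AOX1 had 1.724, 1.296 and 1.254 FPKM in the OV-BRCA1 group and 8.748, 7.043 and 9.946 FPKM in the NC group, with a log2 fold change of -1.98 ± 0.14 (limma adjusted p = 0.000209). With its most abundant transcript in place of the sum, AOX1 was not called (log2 fold change -0.75, limma adjusted p = 0.491). The aldehyde dehydrogenase ALDH3A1 fell by 1.22 and the export pump ABCC3 by 1.24. ALDH3A1 also lost its call with its most abundant transcript (log2 fold change -0.95, limma adjusted p = 0.126). Among 5 tested aldo-keto reductases outside the 10 genes, 2 fell, beside 18.9% lower over all genes tested. The only call in the other direction was AKR1B15, described above without a test. AKR1B1, the aldose reductase, had 446.6, 422.3 and 418.0 FPKM in the OV-BRCA1 group and 798.4, 745.0 and 781.9 FPKM in the NC group. It fell by 0.85 ± 0.05 (limma adjusted p = 7.22e-05), and AKR1E2, which lies near the AKR1C genes on chromosome 10, fell by 0.37 (limma adjusted p = 0.0224). The call of AKR1E2 was lost without OV-BRCA1 sample 1 or 2 and without NC sample 1 or 3 (limma adjusted p = 0.0537 to 0.066).

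**Figure D4:**
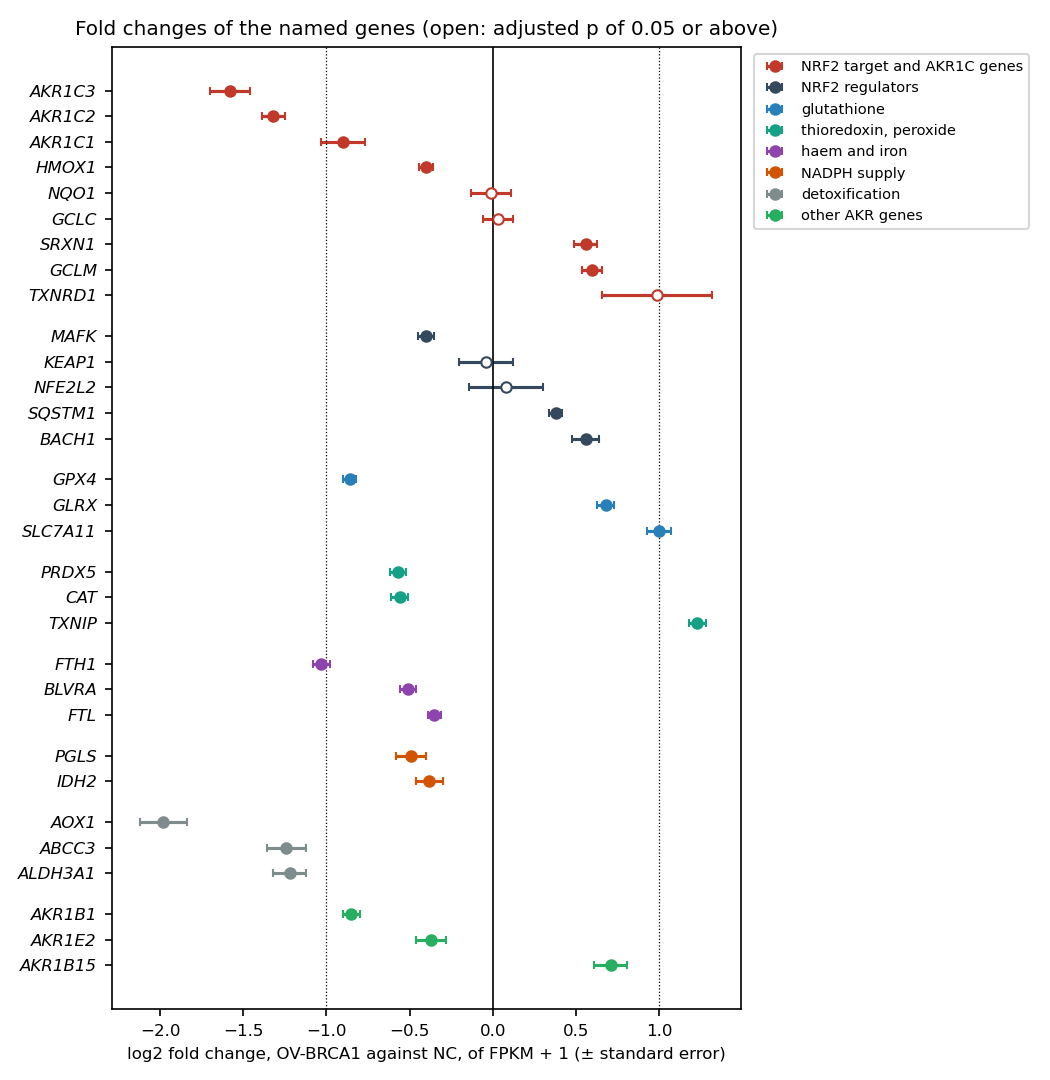
Log2 fold change of FPKM + 1 between OV-BRCA1 and NC samples (horizontal axis) for the 9 tested genes and the named genes of each list, with standard errors as bars. Filled points had a limma adjusted p below 0.05 (AKR1B15 entered the fit only through the OV-BRCA1 group), dotted lines mark an absolute log2 fold change of 1, and AOX1, AKR1C3 and AKR1C2 lie farthest to the left.

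The 6 calls among the 10 genes were also made after scaling to nuclear protein-coding genes and in every fit that left out 1 sample. The exception among all 14 alternatives was AKR1C3 when the most abundant transcript replaced the sum (limma adjusted p = 0.413). The difference there was larger than that of the sum, and AKR1C3-209 was at 0 in 1 OV-BRCA1 sample. AKR1C1 passed the DEG limit when OV-BRCA1 sample 3 was left out (log2 fold change -1.03). TXNRD1 was called in none of the alternatives, with log2 fold changes from 0.56 to 1.20.

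**Figure D5:**
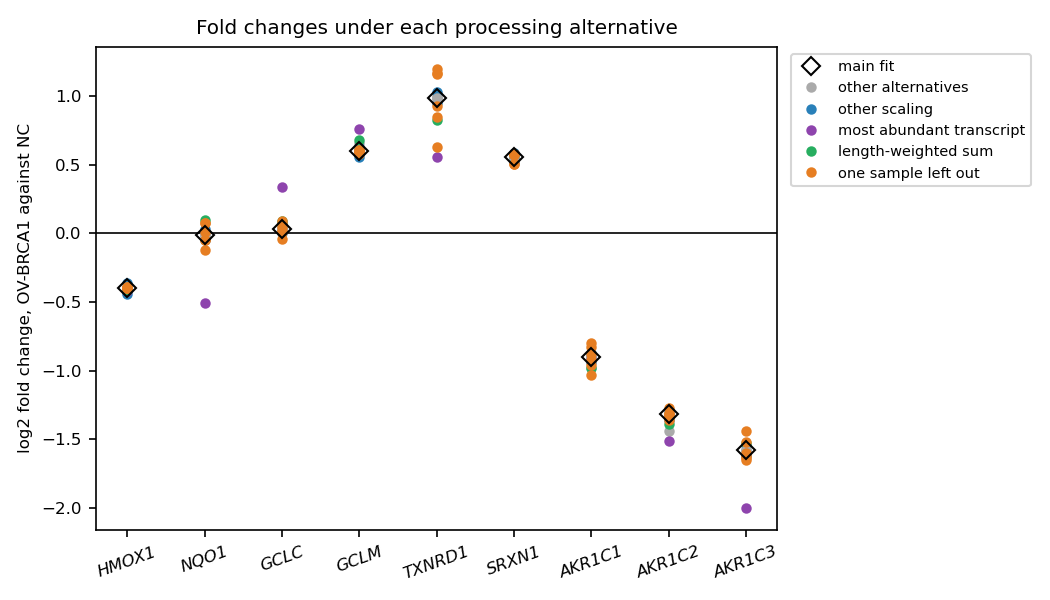
Log2 fold change of the 9 tested genes (vertical axis) in the reported fit (diamonds) and in 14 alternatives (points). AKR1C genes and HMOX1 lie below 0 and GCLM, SRXN1 and TXNRD1 above 0 throughout, while NQO1 and GCLC lie on both sides.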

How the data were processed

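The mRNA of SiHa cells was sequenced in 3 biological replicates per group, grouped by the plasmid in the labels. The authors removed low-quality reads and deposited FPKM values for 199167 transcripts of 58174 genes. The submitters' processing notes name HISAT2, FastQC and hg38, and the quantification tool and use of strand are not given in the sources used here. The authors tested counts with DESeq, which FPKM does not allow. Genes were named and placed by GENCODE 29 and FPKM summed over transcripts. Genes with at least 0.5 FPKM in at least 3 samples were tested with limma 3.58.1 (R 4.3.3, trend, no covariate) on log2(FPKM + 1), with p-values adjusted by Benjamini-Hochberg over all genes. Depth was estimated from the steps of low FPKM values, which did not give whole reads, so it limits precision only roughly. The 10 genes, the lists and the motifs were chosen with earlier results of these data known. Named list genes were BRCA1, NFE2L2, KEAP1, BACH1 and the 3 called genes with the smallest adjusted p of each list, and named transcripts the 4 most abundant with a mean of at least 1 FPKM. A gene covered by this rule is not reported here. The test was checked on simulated data. The alternatives were a pseudocount of 0.1, no filter, a replicate block, scaling by the median of ratios or to nuclear protein-coding genes, the most abundant transcript, robust estimation, each sample left out and, chosen after seeing the data, a length-weighted sum. Python 3.11.15 was used for the rest.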

Additional observations from a re-analysis of the deposited data

How the results depend on the processing

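The 6 calls among the 10 genes kept direction and side of the threshold in 13 of 14 alternatives, as the report gives. All genes moved from 472 upregulated and 179 downregulated DEGs to 764 and 516 with a pseudocount of 0.1, and from 2674 higher and 3090 lower genes to 1685 and 1606 with the most abundant transcript, which left 1 downregulated DEG among the 10 genes (median log2 fold change -0.42), and 5 higher and 17 lower genes and 2 downregulated DEGs on the pathway lists. Upregulated DEGs on those lists were 3 with a pseudocount of 0.1, 2 with the median of ratios and 1 to 2 with a sample left out (2 without OV-BRCA1 sample 2, NC sample 2 or NC sample 3), and the length-weighted sum called 14 list genes higher, in place of 9. With a sample left out, all genes gave 1906 to 2174 higher and 2217 to 2511 lower calls. With the most abundant transcript, calls were lost by BACH1 and IDH2, whose log2 fold changes grew to 1.23 and -0.46, and by AOX1, ALDH3A1 and AKR1E2, whose log2 fold changes shrank to -0.75, -0.95 and -0.25 (limma adjusted p = 0.0534 to 0.491), and FTL did without a filter (limma adjusted p = 0.0608). The log2 fold changes of 4 genes that were not called changed sign. NQO1 was at -0.51 with the most abundant transcript, 0.03 with the median of ratios, 0.10 with the length-weighted sum and -0.12 to 0.08 with a sample left out. GCLC was at 0.34 with the most abundant transcript, -0.00 (just below 0) after scaling to nuclear protein-coding genes and -0.04 to 0.09 with a sample left out. NFE2L2 was at -0.14 with the most abundant transcript and -0.20 to 0.22 with a sample left out, and KEAP1 at -0.22 to 0.10. The cause was not tested.

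The replicate numbers of the labels did not pair the samples, since deviations from the group means of same-numbered samples correlated at -0.0244, 0.025 and 0.0136. With the replicate number as a block, 6 of the 6 calls were made and AKR1E2 lost its call (log2 fold change -0.37, limma adjusted p = 0.06). The authors give the total reads of each sample but not the number of fragments behind the FPKM values. That depth was only estimated, so no detection limit is given for AKR1B10 and other genes near 0 FPKM.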
